A study of Mus musculus with 24 samples.

Results

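The 38 genes described here are interferon-stimulated genes, genes that cells switch on when interferon reaches its receptor. They were taken by name from a fixed list, and all 38 were found among the 55291 gene rows of the expression tables. Hippocampal polyA RNA from 12 mice was profiled by MeRIP-seq, in which an antibody against N6-methyladenosine (m6A), a methylated base of messenger RNA, pulls down the RNA fragments or molecules that carry it. Each animal gave 1 input library, which measures the RNA level, and 1 immunoprecipitated (IP) library. The 3 groups of 4 animals, labelled as biological replicates, were untreated wild-type mice and 2 sets of 5xFAD mice, dosed with vehicle or with MS1262, which the series title calls a brain-penetrant inhibitor of the histone methylase G9a. 5xFAD is a transgenic model of familial Alzheimer's disease, whose mutant human genes are driven by the neuronal Thy1 promoter and which develops amyloid plaques. Age, sex, dose and length of treatment were not given in the sources used here beyond the statement that wild-type animals were age matched. Because the wild-type animals were not dosed, genotype and dosing cannot be told apart in a comparison with them.

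Type I interferons bind the receptor pair IFNAR1 and IFNAR2, whose kinases JAK1 and TYK2 phosphorylate STAT2 among other targets. STAT2 and IRF9 are subunits of the factor ISGF3, which binds the interferon-stimulated response element (ISRE) in the promoters of its targets. Targets of interferon gamma carry another element, the gamma-activated site (GAS). In brains with amyloid plaques, microglia are a well-known source of interferon-stimulated transcripts.

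The ISRE was searched for in the promoters of the listed genes. RefSeq promoter sequence (GRCm38.p6, 250 bases before to 50 after the start) was held for 32 of the 38 genes. The ISRE core, searched on both strands as GAAA, any 2 bases and GAAA, was present in 20 of the 32 (62.5%) and in 1079 of all 27025 genes with a promoter entry (3.99%). The shorter GAS pattern, TTCNNNGAA, was present in 8 of the 32 (25.0%) and in 2582 of all genes (9.55%). Of the 14 genes whose input levels are given by animal below, 9 had a core match in their window. The other 5 (Irf9, Ifi44, Psmb8, Oasl2 and Irf7) had either no match or no promoter entry to search. The matching stretches of the 9 follow, each read along the gene's own strand from 5′ to 3′, with the ISRE core matches in capitals and flanks of up to 20 bases. A core that lies in the opposite orientation reads TTTC, any 2 bases and TTTC. Overlapping matches are joined into a single run of capitals.
Ifitm3: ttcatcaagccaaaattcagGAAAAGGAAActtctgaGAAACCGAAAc
Trim30a: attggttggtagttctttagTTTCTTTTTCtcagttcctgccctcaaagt
Ifit3b: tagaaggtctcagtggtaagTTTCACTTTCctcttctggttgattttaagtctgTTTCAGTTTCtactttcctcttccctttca
Ifit3: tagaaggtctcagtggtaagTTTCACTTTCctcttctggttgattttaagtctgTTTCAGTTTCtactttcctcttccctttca
Irgm1: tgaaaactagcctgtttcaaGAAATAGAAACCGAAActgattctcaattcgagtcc
Gbp2: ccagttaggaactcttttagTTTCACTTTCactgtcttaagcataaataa
Ifitm2: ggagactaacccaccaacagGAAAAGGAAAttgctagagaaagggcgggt
Stat2: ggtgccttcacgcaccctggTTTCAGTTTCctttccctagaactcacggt
Isg15: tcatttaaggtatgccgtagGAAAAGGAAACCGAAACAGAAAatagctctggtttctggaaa

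The Ifit3 and Ifit3b stretches are identical in 84 of 84 bases, at chr19:34583353-34583436 and chr19:34607749-34607832 on the plus strand, and each holds 2 separate cores. Isg15 holds 3 overlapping cores at chr4:156200855-156200916 on the minus strand. The Ifitm3 stretch, chr7:141010715-141010762 on the minus strand, holds 2 cores that both lie after the annotated start. The stretches of Trim30a (chr7:104465200-104465249, minus), Irgm1 (chr11:48871415-48871470, minus), Gbp2 (chr3:142620584-142620633, plus), Ifitm2 (chr7:140955978-140956027, minus) and Stat2 (chr10:128270256-128270305, plus) complete the set. Trim30a has another promoter entry at a second annotated start, whose window holds a further core match that is not printed. A match is a string of letters in a window and no measure of factor binding.

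The list is spread over 15 chromosomes, but 19 of its genes sit in 7 clusters of neighbours within 1 Mb. Ifit2, Ifit3, Ifit3b and Ifit1 lie next to each other on chromosome 19, the immunoproteasome subunits Psmb9 and Psmb8 flank the peptide transporter gene Tap1 on chromosome 17, and Gbp7, Gbp3 and Gbp2 share a stretch of chromosome 3. Near-identical copies and overlapping genes make some assignments of reads uncertain. This concerns Ifit3 with Ifit3b, and Ifi27 with Ifi27l2a, whose spans overlap on chromosome 12.

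Per length of transcript, the list covered a wide range in the input libraries. On the TPM scale (a level per transcript length, as deposited) the wild-type means ran from 134 ± 16.7 for Ifi27 (SD, n = 4), a mitochondrial and nuclear-membrane protein, to 0.114 ± 0.116 for Slfn5. After Ifi27 came Ifitm2 at 36.1 ± 8.09 TPM, Ifit3 at 21.8 ± 2.79 and Ifitm3 at 19.5 ± 3.39. Ifit3 and Ifitm3 lay within each other's spread. Isg15, the ubiquitin-like modifier often used as a readout of interferon, was at 0.789 ± 0.160 TPM, and Irf7, the transcription factor that amplifies interferon production, at 0.255 ± 0.258. Those low levels rest on few reads, since an input library held 1 to 30 estimated counts of Isg15 and 0 to 20 of Irf7. Zbp1, a sensor of Z-form nucleic acid, reached at most 19 counts and was below the filter on low counts in the input comparison, so 37 of the 38 genes were tested there and 38 in the IP libraries.

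Input libraries held between 20692611 and 43150054 estimated counts and IP libraries between 3984481 and 48597732, the lowest being the IP library of vehicle animal 4. Levels below are CPM, counts relative to the size of the library, scaled by trimmed mean of M-values over all 24 libraries. The 6 neuronal markers, among them Prox1 of dentate granule cells, summed to 7484 to 9332 CPM in every input library. Vehicle animal 3 stood apart from the others. Its 5 sex-linked markers, Xist and the Y-linked Ddx3y, Eif2s3y, Kdm5d and Uty, summed to 1.41 CPM, so Xist and Y-linked RNA were both low. The same sum was 23.5 to 52.3 CPM in the other 11 animals. Vehicle animal 3 also had 7668 CPM of the choroid plexus transcript Ttr against 33.0 to 811. Its 10 homeostatic microglia markers summed to 448 CPM, close to the wild-type range of 418 to 460, while the other 3 vehicle animals had 723 to 916 and the MS1262 animals 611 to 769. Its 10 markers of disease-associated microglia summed to 252 CPM, against 150 to 230 in wild type, 342 to 541 in the other vehicle animals and 321 to 530 with MS1262.

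In the vehicle-treated 5xFAD hippocampus most of the list lay above wild type, but few genes passed the test. Of 37 genes tested, 33 had a positive and 4 a negative fitted log2 fold change, with a median of 0.58 against 0.01 over all 17693 genes tested. By edgeR's quasi-likelihood test with Benjamini-Hochberg adjustment over all genes, 1 gene of the list was called higher and 0 lower. The share of all genes called was 1.06% higher and 0.514% lower. At an unadjusted p under 0.05 the list had 14 genes higher and 0 lower, against 1287 and 976 of all 17693. DESeq2 called 6 genes of the list higher and 0 lower, and 404 and 207 of all 29817 genes in its fit. Groups did not overlap for 2 genes, Ifitm3 and Irf9, where 3.88% of all genes were higher in every vehicle animal than in every wild-type animal, and 0 genes of the list were lower without overlap (3.24% of all genes). These are bulk RNA samples, in which more cells of a type and more RNA per cell cannot be told apart.

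The MS1262-treated 5xFAD animals were compared with the same 4 wild-type animals, so the 2 comparisons share their controls and are given side by side. Here 30 genes were positive and 7 negative, with a median log2 fold change of 0.33 against -0.00 over all genes. Again 1 gene was called higher and 0 lower, with 0.91% of all genes called higher and 0.39% lower. Groups did not overlap for 6 genes, namely Trim30a, Ifi44, Ifit3b, Psmb8, Stat2 and Lgals9, where 5.06% of all genes were higher without overlap, and 0 were lower (5.02%). When the 8 5xFAD animals were set against wild type, 2 genes were called higher and 0 lower (1.52% and 0.887% of all genes), and 31 of 37 were positive with a median of 0.44. No gene of the list separated all 8 from wild type, against 1.68% of all genes higher and 1.38% lower.

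**Figure D1:**
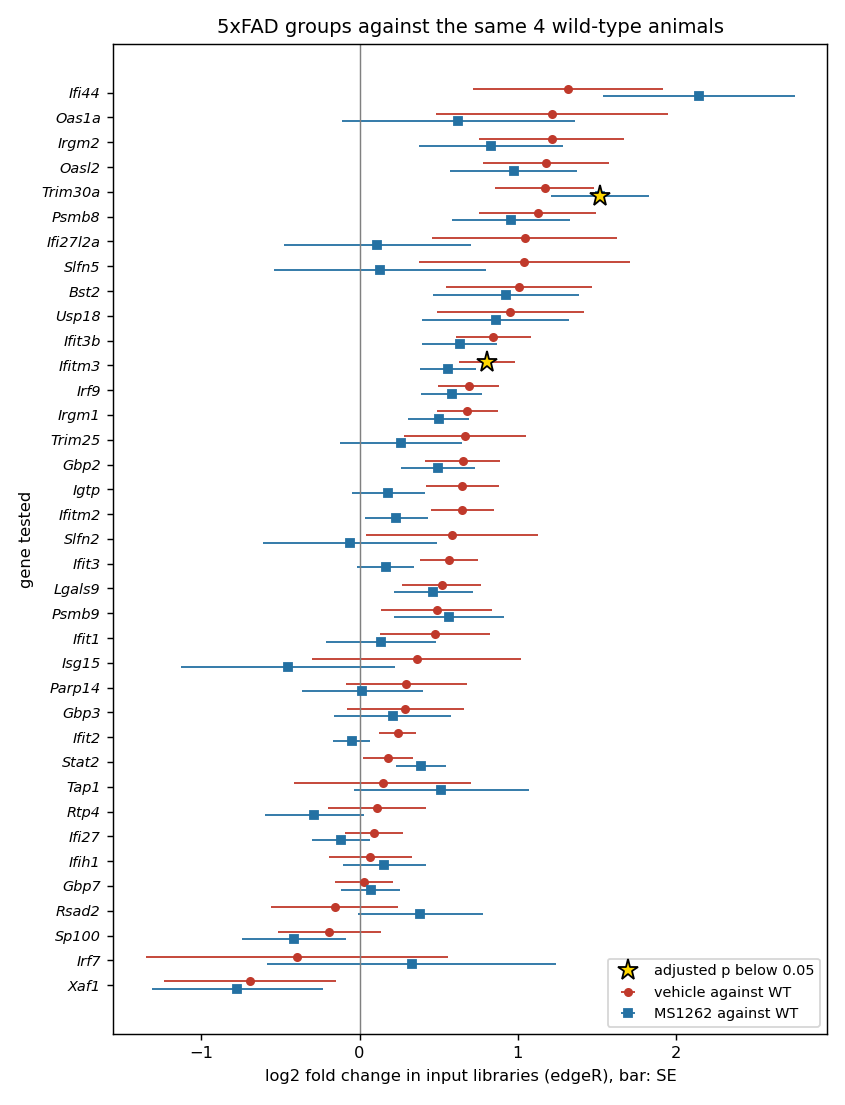
Log2 fold changes of the 37 tested interferon-stimulated genes in input libraries, with standard errors as bars, for 5xFAD vehicle (red circles) and 5xFAD MS1262 (blue squares) against the same 4 wild-type animals; stars mark an adjusted p below 0.05. Points lie mostly to the right of 0, and the stars fall on Ifitm3 with vehicle and Trim30a with MS1262.

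Membrane and lipid effectors held the called gene of the vehicle comparison. Ifitm3 encodes a membrane protein that blocks fusion of enveloped viruses in endosomes. Its input level was 8.22, 7.64, 9.43 and 10.3 CPM in wild-type animals 1 to 4, 18.6, 14.5, 14.6 and 14.2 in vehicle animals and 9.06, 15, 14.4 and 13.8 in MS1262 animals. Every vehicle animal lay above every wild-type animal, and 3 of the 4 MS1262 animals did. Ifitm3 rose by 0.81 on the log2 scale (SE 0.18) in vehicle animals, a 1.75-fold difference (adjusted p = 0.0383, edgeR). Without any wild-type animal or without vehicle animal 1, 2 or 3 the adjusted p lay between 0.0518 and 0.115, and no gene of the list was called without MS1262 animal 2, 3 or 4, which enter that test only through the shared estimate of spread. The log2 difference was 0.70 to 0.88 over the 8 omissions of a wild-type or vehicle animal, and the adjusted p 0.00189 to 0.115 over all 15 alternatives. With MS1262 the log2 difference was 0.56 (SE 0.18, adjusted p = 0.159), and 0.70 without MS1262 animal 1 (adjusted p = 0.0481, within a range of 0.0481 to 0.353 over its alternatives). Across all 8 5xFAD animals Ifitm3 rose by 0.68 (SE 0.16, adjusted p = 0.0341), a call lost without any wild-type animal, vehicle animal 1 or 2, or MS1262 animal 2, 3 or 4 (adjusted p 0.0525 to 0.123).

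Ifitm2, its neighbour on chromosome 7 and close relative, had 16.8, 10.9, 20.1 and 15.1 CPM in wild type, 27.9, 16.2, 27.4 and 26.4 with vehicle and 20.7, 19.6, 16.0 and 17.0 with MS1262. Vehicle animal 2 lay inside the wild-type range and the other 3 above it, and the MS1262 values overlapped wild type. The log2 differences were 0.65 (SE 0.20, adjusted p = 0.148) with vehicle and 0.23 (SE 0.20, adjusted p = 0.656) with MS1262. Of the other members of this group, Bst2 (tetherin, which holds budding virions at the cell surface), Lgals9 (galectin-9) and Rsad2 (viperin) did not pass in either comparison, with log2 differences against wild type of 1.01, 0.52 and -0.16 for vehicle and 0.93, 0.47 and 0.38 for MS1262.

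The ISG15 system and the ubiquitin ligases held the called gene of the MS1262 comparison. Trim30a encodes a mouse ubiquitin ligase of the tripartite motif family that restrains Toll-like receptor signalling. It had 2.61, 1.67, 2.52 and 2.39 CPM in wild-type animals, 6.0, 6.81, 2.31 and 5.41 with vehicle and 4.13, 7.76, 6.47 and 7.92 with MS1262. All 4 MS1262 animals and 3 vehicle animals were above every wild-type animal, and vehicle animal 3 was at the wild-type level. With MS1262 Trim30a rose by 1.52 on the log2 scale (SE 0.31), 2.87-fold (adjusted p = 0.0278). That call was lost without any wild-type animal or without MS1262 animal 2, 3 or 4 (adjusted p 0.0567 to 0.101), with log2 differences of 1.39 to 1.69 over the 8 omissions and adjusted p of 0.000164 to 0.107 over its 15 alternatives. In the vehicle comparison Trim30a was at 1.17 (SE 0.31, adjusted p = 0.0893), and at 1.4 without vehicle animal 3 (adjusted p = 0.0107, with 0.0107 to 0.231 over its alternatives). Over all 8 5xFAD animals it rose by 1.35 (SE 0.28, adjusted p = 0.0209), a call that was lost without any wild-type animal (adjusted p 0.0529 to 0.0850). Isg15 itself had 0.290, 0.430, 0.381 and 0.424 CPM in wild type, 0.462, 0.305, 0.342 and 0.815 with vehicle and 0.0249, 0.219, 0.412 and 0.451 with MS1262. The 3 groups overlapped, and the fitted log2 differences of 0.36 (SE 0.66) with vehicle and -0.45 (SE 0.68) with MS1262 were smaller than their standard errors. Usp18, the protease that removes ISG15, was at 0.95 (SE 0.46) and 0.86 (SE 0.46), and Trim25, an ISG15 and ubiquitin ligase, at 0.67 (SE 0.39) and 0.26 (SE 0.39); neither passed.

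**Figure D2:**
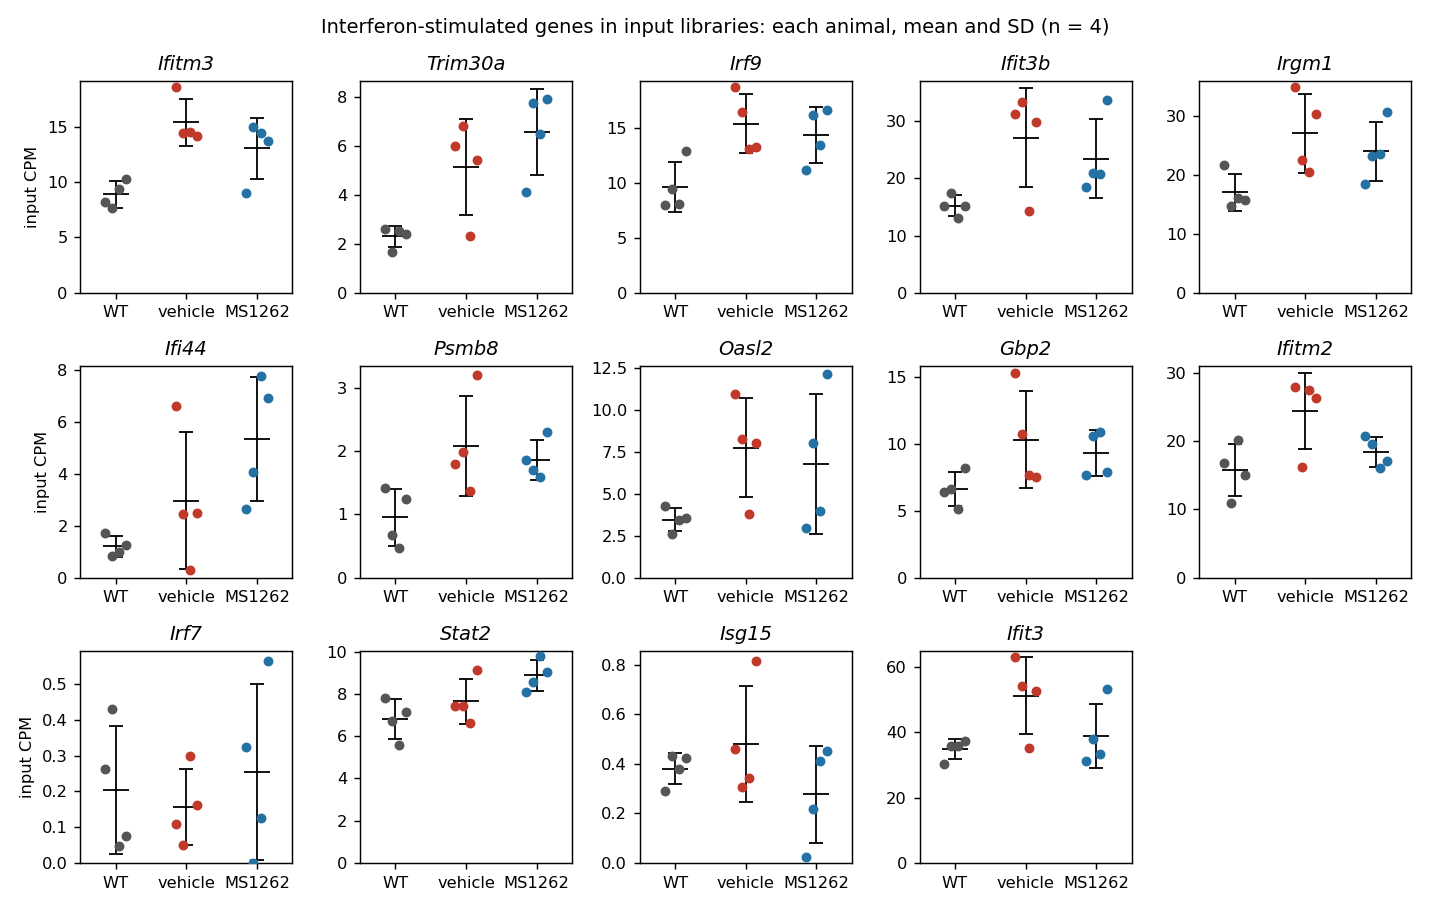
Input CPM of the 14 genes given by animal, with a point per animal and the group mean and SD (n = 4); each panel starts at 0 and has its own scale. Ifitm3 and Trim30a hold the called differences, vehicle animal 3 is the lowest vehicle point of Trim30a, Ifit3b and Ifi44, and Irf7 and Isg15 lie below 1 CPM in every animal.

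Among sensors and signalling genes, the factor that reads the ISRE differed most. Irf9 had 7.99, 9.44, 8.05 and 12.9 CPM in wild type, 18.7, 16.5, 13.1 and 13.3 with vehicle and 11.1, 16.1, 13.4 and 16.7 with MS1262. Each vehicle animal was above all wild-type animals, by a small margin for animals 3 and 4, and MS1262 animal 1 fell below the highest wild-type value. The log2 differences were 0.69 (SE 0.19, adjusted p = 0.105) and 0.58 (SE 0.19, adjusted p = 0.173). Its partner Stat2 had 7.78, 6.70, 5.57 and 7.15 CPM in wild type, 7.44, 7.42, 6.62 and 9.13 with vehicle and 8.09, 8.55, 9.80 and 9.05 with MS1262. All 4 MS1262 values lay above wild type, at a log2 difference of 0.39 (SE 0.16, adjusted p = 0.275), and the vehicle values overlapped it (0.18, SE 0.16, adjusted p = 0.702). Irf7 had 0.261, 0.430, 0.0476 and 0.0748 CPM in wild type, 0.109, 0.0508, 0.299 and 0.163 with vehicle and 0.323, 0, 0.127 and 0.564 with MS1262. At these levels no direction could be read, with log2 differences of -0.40 (SE 0.96) and 0.33 (SE 0.92). Ifih1, the cytoplasmic sensor of long double-stranded RNA, was at 0.07 (SE 0.26) and 0.16 (SE 0.26).

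RNA-directed effectors were positive in 8 of 8 members with vehicle (median 0.72) and in 6 of 8 with MS1262 (median 0.15), and 0 were called in either. IFIT proteins bind foreign RNA ends and OAS-family proteins sense double-stranded RNA. Ifit3 had 30.4, 35.9, 35.8 and 37.4 CPM in wild type, 63.1, 54.1, 35.1 and 52.8 with vehicle and 31.2, 37.9, 33.4 and 53.1 with MS1262. Vehicle animals 1, 2 and 4 were above wild type and vehicle animal 3 within it, while only animals 2 and 4 of the MS1262 group exceeded the wild-type range. The log2 differences were 0.57 (SE 0.18, adjusted p = 0.172) and 0.17 (SE 0.18, adjusted p = 0.739). Ifit3b had 15.2, 17.5, 13 and 15.1 CPM in wild type, 31.3, 33.3, 14.2 and 29.8 with vehicle and 18.4, 21.0, 20.8 and 33.7 with MS1262. The same vehicle animal was again at the wild-type level, and every MS1262 animal was above it. The log2 differences for Ifit3b were 0.85 (SE 0.24, adjusted p = 0.112) and 0.63 (SE 0.24, adjusted p = 0.233), and without vehicle animal 3 the vehicle value was 1.04 (adjusted p = 0.00772, with 0.00772 to 0.276 over its alternatives). Across both 5xFAD groups Ifit3b passed without vehicle animal 3, at 0.83 (adjusted p = 0.00925, with 0.00925 to 0.221 over its alternatives). Reads of these 2 genes may have been divided between them, so the split is uncertain.

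Oasl2 had 4.27, 2.61, 3.43 and 3.54 CPM in wild type, 11, 8.28, 3.8 and 8.02 with vehicle and 2.96, 8.07, 3.97 and 12.1 with MS1262. MS1262 animals 1 and 3 lay within the wild-type range and animals 2 and 4 well above it, and vehicle animal 3 was again within it. The log2 differences were 1.18 (SE 0.40, adjusted p = 0.20) and 0.98 (SE 0.40, adjusted p = 0.279). Of the remaining members, Ifit1 and Ifit2 were at 0.48 and 0.24 with vehicle and at 0.14 and -0.05 with MS1262, and Oas1a, Slfn2 and Slfn5 at 1.22, 0.58 and 1.04 with vehicle and 0.63, -0.06 and 0.13 with MS1262.

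All 6 interferon-inducible GTPases, which attack the membranes around intracellular pathogens, were positive in both comparisons (medians 0.65 and 0.35) and 0 of 6 were called. Irgm1, a regulator of this family, had 21.6, 14.7, 16.0 and 15.8 CPM in wild type, 34.9, 22.6, 20.6 and 30.4 with vehicle and 18.4, 23.3, 23.6 and 30.7 with MS1262. Wild-type animal 1 reached into the 5xFAD range and the other 3 lay below all 5xFAD animals. The log2 differences for Irgm1 were 0.68 (SE 0.19, adjusted p = 0.114) and 0.50 (SE 0.19, adjusted p = 0.245). Gbp2 had 6.39, 6.65, 5.14 and 8.22 CPM in wild type, 15.3, 10.7, 7.69 and 7.53 with vehicle and 7.69, 10.6, 10.9 and 7.92 with MS1262. Groups overlapped through wild-type animal 4, and the log2 differences were 0.65 (SE 0.24, adjusted p = 0.238) and 0.50 (SE 0.24, adjusted p = 0.359). Its cluster neighbours did not follow to the same extent: Gbp3 was at 0.29 (SE 0.37) and 0.21 (SE 0.37), and Gbp7 at 0.03 (SE 0.18) and 0.07 (SE 0.18). The difference between these neighbours was not tested. Irgm2 and Igtp were at 1.22 and 0.65 with vehicle and at 0.83 and 0.18 with MS1262.

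The 3 antigen-processing genes were positive in both comparisons and 0 were called. Psmb8, a catalytic subunit of the immunoproteasome, had 1.42, 0.673, 0.476 and 1.25 CPM in wild type, 1.79, 1.98, 1.37 and 3.21 with vehicle and 1.87, 1.71, 1.59 and 2.31 with MS1262. All MS1262 animals lay above wild type, and vehicle animal 3 was just inside it. The log2 differences were 1.13 (SE 0.37, adjusted p = 0.183) and 0.96 (SE 0.37, adjusted p = 0.246). Psmb9 was at 0.49 and 0.56, and Tap1, a subunit of the peptide transporter, at 0.15 and 0.52.

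The remaining 7 interferon-induced genes were mixed, with 5 positive and 2 negative for vehicle and 3 positive and 4 negative for MS1262. Ifi44 had the largest fitted log2 difference of the list with MS1262. It had 1.74, 0.834, 1.00 and 1.25 CPM in wild type, 6.63, 2.44, 0.299 and 2.5 with vehicle and 2.64, 4.08, 7.77 and 6.91 with MS1262. The MS1262 animals were all above wild type, whereas vehicle animals ran from below the lowest wild-type value to well above the highest. Its log2 differences were 2.15 (SE 0.61, adjusted p = 0.108) with MS1262 and 1.32 (SE 0.60, adjusted p = 0.374) with vehicle. The vehicle value rested on single animals: it was 0.55 without vehicle animal 1 and 1.67 without vehicle animal 3 (adjusted p 0.771 and 0.0823, in a range of 0.0823 to 0.966 over its alternatives). Across both 5xFAD groups Ifi44 passed without vehicle animal 3, at 1.91 (adjusted p = 0.0165, in a range of 0.0165 to 0.553). Xaf1, an apoptosis factor, and Sp100, a nuclear body protein, were negative in both, Xaf1 at -0.69 and -0.77 and Sp100 at -0.19 and -0.41, and did not pass. Ifi27, the most abundant member, was at 0.09 (95% interval -0.30 to 0.48) and -0.12 (-0.51 to 0.28).

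**Figure D3:**
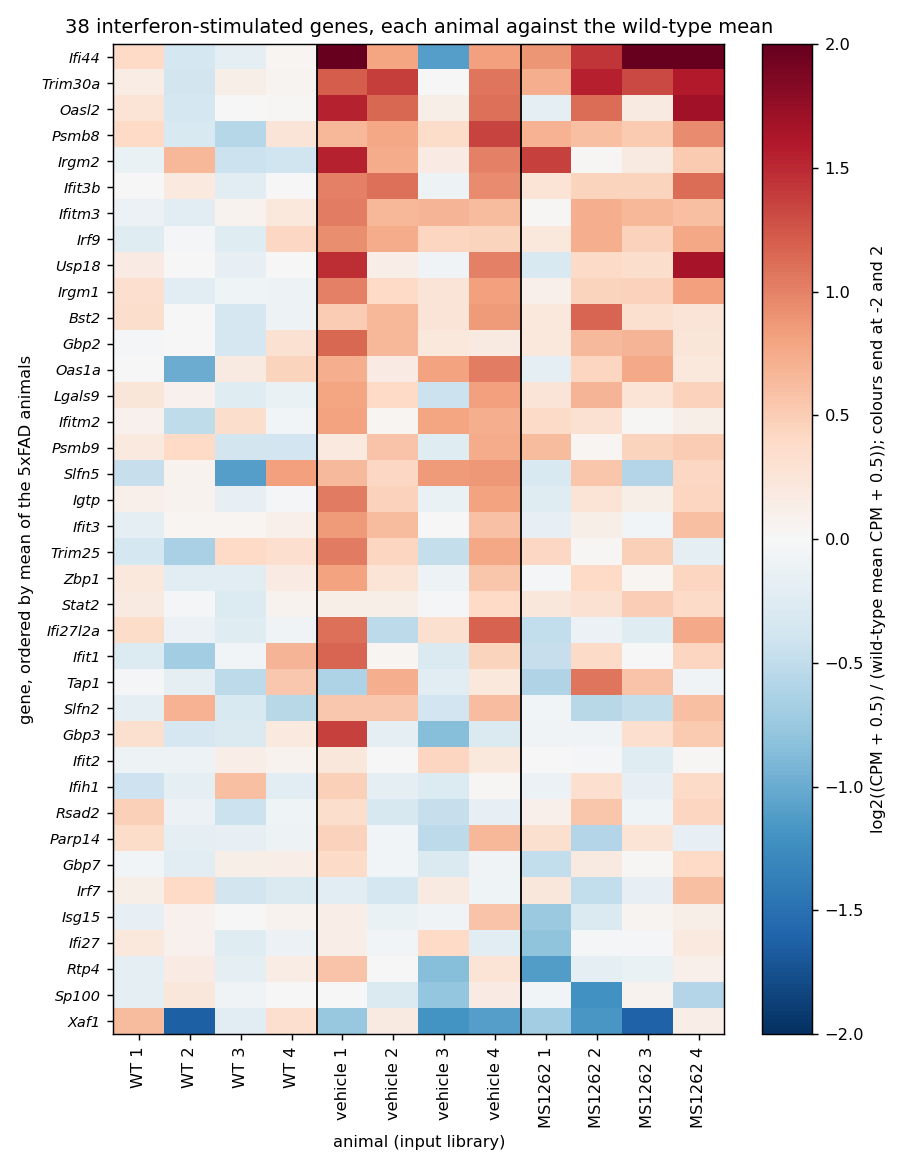
Each row is 1 of the 38 genes and each column 1 animal's input library; colour gives log2 of CPM plus 0.5 over the wild-type mean plus 0.5, with red higher and blue lower. The columns of vehicle animals 1 and 4 are red over most rows, that of vehicle animal 3 is close to wild type, and MS1262 animal 1 is the palest of its group.

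The elevation of the list differed between animals of a group. For each animal, the genes that lay above all 4 wild-type animals were counted in the input libraries. Vehicle animals 1 to 4 had 26, 17, 7 and 25 such genes of 37, with median log2 differences from the wild-type mean of 0.92, 0.48, -0.08 and 0.84. MS1262 animals had 10, 18, 17 and 19, with medians of 0.10, 0.35, 0.30 and 0.56. Over all genes tested the share above every wild-type animal was between 21.1% and 25.6% in these 8 animals. So 7 of 37 in vehicle animal 3 (18.9%) and 10 of 37 in MS1262 animal 1 (27.0%) were near the share of all genes, and 26 of 37 in vehicle animal 1 (70.3%) was far above it. Wild-type animals 1 to 4, each set against only the other 3, had 16, 8, 4 and 9 such genes (43.2%, 21.6%, 10.8% and 24.3%). Their share over all genes was 21.6% to 27.7%. Wild-type animal 1 thus came near vehicle animal 2 and MS1262 animal 3 (45.9% each), although lying above 3 animals is easier than lying above 4. In the IP libraries vehicle animal 3 and MS1262 animal 1 again had the fewest of their groups, where vehicle animals had 28, 19, 6 and 21 of 38 and MS1262 animals 9, 15, 16 and 25, against 17.3% to 34.6% of all genes. Input and IP of an animal come from the same RNA, so this repeats the library preparation and not the animal.

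Without vehicle animal 3, 3 genes of the list were called higher against wild type in place of 1, namely Trim30a, Ifit3b and Ifit3. The median log2 difference was 0.73. Higher calls over all genes rose too, to 229 (68 lower) of 18208 from 187 (91 lower) of 17693. Without both animals of high Ttr, wild-type animal 3 and vehicle animal 3, 2 were called and the median log2 difference was 0.68. Of all 18059 genes in that fit, 200 were called higher and 48 lower. Vehicle animal 3 had the lowest sums of homeostatic and disease-associated microglia markers among the 5xFAD animals and the fewest list genes above wild type. The part of microglia in the list's values was not tested. MS1262 animal 1 had the next lowest sums, 611 and 321 CPM, and the next fewest list genes. Other 5xFAD animals departed from this order. Vehicle animal 2 had the highest sums, 916 and 541 CPM, and 17 list genes. Vehicle animal 4 had 806 and 342 CPM and 25 list genes, and MS1262 animal 2 had 769 and 530 CPM and 18.

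**Figure D4:**
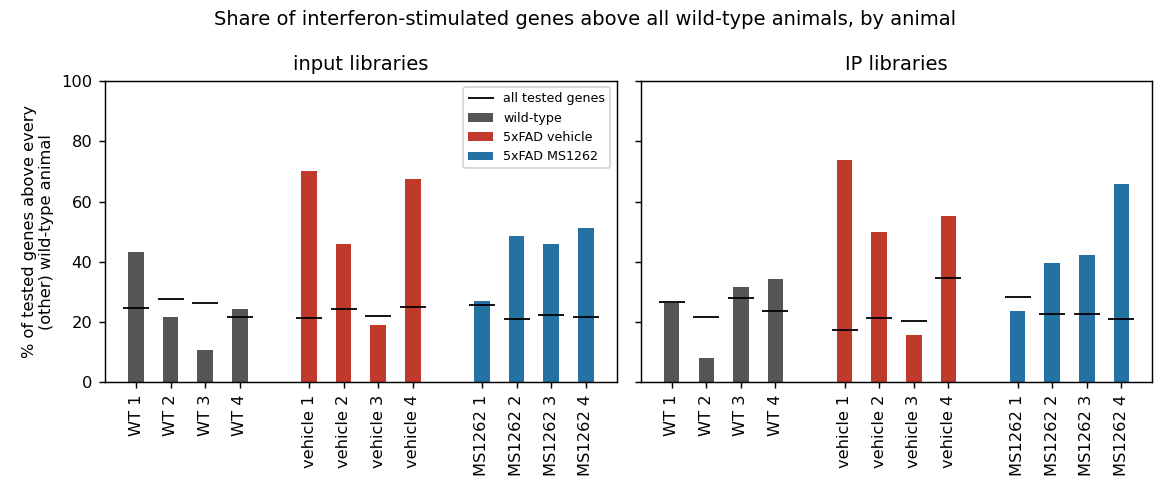
Bars give the percentage of the tested interferon-stimulated genes that lay above every wild-type animal in each library, for input (left) and IP (right), and black lines give the same share over all genes tested; wild-type animals are set against the other 3. Vehicle animals 1 and 4 reach 70.3% and 67.6% in input, while vehicle animal 3 and MS1262 animal 1 lie close to their black lines.

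Between MS1262 and vehicle within 5xFAD, no gene of the list and no gene at all passed edgeR's test in the input libraries (0% called higher and 0% lower of 17693). At an unadjusted p under 0.05 the list had 0 genes higher and 2 lower, Ifit2 and Ifit3, against 385 and 618 of all genes, and DESeq2 called 4 genes higher and 7 lower overall and 0 of the list. Fitted log2 differences were negative for 28 and positive for 9 of the 37 genes, with a median of -0.20 against -0.01 over all genes. The median lay between -0.31 and -0.07 when each animal was left out in turn. All 8 RNA-directed effectors were negative, from -0.91 to -0.20. The Ifit3 difference was -0.40 (95% interval -0.79 to -0.01, adjusted p = 0.863) and that of Ifit2 was -0.29 (-0.54 to -0.04, adjusted p = 0.848). Ifitm3 was at -0.25 (-0.62 to 0.13) and Trim30a at 0.35 (-0.30 to 1.00). The interval of Ifitm3 lies between a fall of under 1 log2 unit and a small rise, and that of Trim30a reaches 1.00. In no gene of the list were the MS1262 and vehicle animals free of overlap, in either direction, against 1.59% of all genes higher and 1.77% lower.

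The wider interferon pathway was read from a second list of 73 genes, of which 55 were tested. No interferon gene among the 9 listed ligands was detectable beyond 2 counts in any input library, and Ifnb1 and Ifng were at 0 in all 12. Of 5 receptors tested 0 passed in either comparison with wild type, and of 9 kinases and factors 1 did. Ifnar1 was at 16.2 ± 1.81 CPM (SD, n = 4) in wild type, 15 ± 1.08 with vehicle and 15.1 ± 0.960 with MS1262, and Ifnar2 at 4.71 ± 1.92, 5.21 ± 0.489 and 5.97 ± 1.33. Irf1, the factor most closely tied to interferon gamma, had log2 differences against wild type of 0.15 (SE 0.24) with vehicle and 0.10 (SE 0.24) with MS1262. Called higher with vehicle were 3 of 55, and 0 were lower. B2m, the light chain of class I major histocompatibility molecules, rose by 0.87 (SE 0.17, adjusted p = 0.0193), the chemokine Cxcl10 by 2.40 (SE 0.52, adjusted p = 0.0364) from 0.166 to 0.895 CPM, and the myeloid factor Irf8 by 1.32 (SE 0.31, adjusted p = 0.0483). With MS1262, B2m (0.80, adjusted p = 0.0327) and Irf8 (1.61, adjusted p = 0.0201) were called and Cxcl10 was not (2.00, adjusted p = 0.0812). Across both 5xFAD groups 5 of 55 were called higher, adding H2-K1, a class I heavy chain, at 0.79 (adjusted p = 0.0459) and the phosphatase gene Ptpn6 at 1.25 (adjusted p = 0.0310).

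Irf8 and Ptpn6 are expressed in microglia, and the microglia markers rose beside them. Of 10 disease-associated markers 6 were called higher in each comparison with wild type, and of 10 homeostatic ones 4. Tyrobp, a microglial signalling adaptor, rose by 2.22 (SE 0.34, adjusted p = 0.00482) with vehicle and 2.25 (SE 0.34, adjusted p = 0.00392) with MS1262. Of 6 reactive astrocyte markers 3 were called higher in each comparison. Markers of lymphocytes and blood myeloid cells were low, and 1 of the 6 T-cell markers passed the filter. The T-cell sum was 0.762 to 16.5 CPM, the B-cell sum at most 2.04 CPM and the neutrophil and monocyte sum at most 3.10 in any input library. Border macrophage markers summed to 5.33 to 15.4 CPM in wild type, 8.49 to 22.8 with vehicle and 9.11 to 11 with MS1262, with 0 of 5 called. Ehmt2, which encodes G9a, differed between MS1262 and vehicle by 0.07 (SE 0.18).

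In the IP libraries the levels of the list gave the same picture with fewer calls. Against wild type 35 of 38 genes were positive with vehicle (median 0.55) and 29 with MS1262 (median 0.33). edgeR called 0 genes of the list in either comparison, against 0.431% of all 16941 genes higher and 0.106% lower with vehicle and 0.555% and 0.118% with MS1262. At an unadjusted p under 0.05 there were 10 higher and 0 lower with vehicle and 6 higher and 0 lower with MS1262, against 1294 and 555, and 1221 and 715, of all genes. DESeq2 called 2 and 1 genes of the list higher, and 288 higher and 60 lower, and 286 and 89, of all 29216 genes in its fit. Psmb8 had the smallest p with vehicle. Its IP level was 1.01, 1.22, 0.444 and 0.754 CPM in wild type, 2.79, 3.09, 1.22 and 6.90 with vehicle and 2.47, 2.09, 1.45 and 2.59 with MS1262. The 5xFAD animals lay above wild type, vehicle animal 3 by the narrowest margin, and the log2 differences were 1.91 (SE 0.47, adjusted p = 0.109) and 1.26 (SE 0.46, adjusted p = 0.291). Trim30a IP levels were 2.71, 1.22, 0.622 and 1.42 CPM in wild type, 6.12, 4.15, 2.68 and 3.55 with vehicle and 3.02, 4.87, 3.44 and 4.94 with MS1262. Only the third vehicle animal fell within the wild-type range, and the log2 differences were 1.5 (SE 0.39, adjusted p = 0.125) and 1.44 (SE 0.38, adjusted p = 0.138). Groups did not overlap for 2 genes with vehicle (2.86% of all genes) and 6 with MS1262 (7.47%), and 0 were lower in either (3.78% and 6.99%). All 8 5xFAD IP libraries lay above wild type for 2 genes, Psmb8 and Ifitm3 (1.82% of all genes), and below it for 0 (2.24%). Without vehicle animal 3, 1 gene of the list was called higher with vehicle and the median was 0.67. Over all genes 162 of 17502 were then called higher and 19 lower, against 73 and 18 of 16941 with every animal. Between MS1262 and vehicle 32 of 38 genes were negative (median -0.29), edgeR called 0 of the list and 0% of all genes in either direction, and DESeq2 called 0 of the list.

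The ratio of IP to input within an animal measures how well a transcript was pulled down relative to the average transcript. It is given as log2 CPM in IP minus log2 CPM in input, so that 0 is the level set by the scaling over all genes and a change of total m6A cannot be seen. In wild type 3 genes of the list were called above 0 and 6 below it, where 16.8% of all 18300 genes were above and 16.2% below. With vehicle the counts were 5 and 7 (19.1% and 20.6% of all genes), and with MS1262 3 and 9 (20.5% and 17.6%). Stat2 and Slfn2 were called higher in all 3 groups, and Ifitm2, Gbp7, Gbp3, Ifi27 and Ifit3 lower in all 3. The remaining genes were called in 1 or 2 groups or, for 21 genes, in none. How many of all genes were called in all 3 groups was not counted. Nothing about the list as a whole is therefore read from these repeated calls.

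That split depends on the unit. Fitted by limma on log2(TPM + 1), the median over all genes was 0.33 in wild type, 0.41 with vehicle and 0.36 with MS1262, in place of -0.03 to 0.02. The list then had 14 genes called higher and 2 lower, 23 and 0, and 15 and 0, where 7838 and 489, 9463 and 319, and 8518 and 326 of all 18300 genes were called. Of the 5 genes called lower in all 3 groups on the CPM scale, Gbp7, Ifi27 and Ifit3 became positive in all 3 groups and Gbp3 in both 5xFAD groups. Ifit3 passed there as higher, at 0.26, 0.36 and 0.33 (adjusted p = 0.0494, 0.00864 and 0.0154, limma). Ifi27 was at 0.097, 0.44 and 0.055 and Gbp7 at 0.063, 0.33 and 0.057. Both passed as higher with vehicle alone (adjusted p = 0.0159 and 0.0462, limma). Relative to the median over all genes, Gbp7 was still negative (-0.27, -0.08 and -0.31), as were Gbp3 (-0.64, -0.16 and -0.30) and Ifit3 (-0.07, -0.05 and -0.04), and Ifi27 was negative in wild type (-0.23) and with MS1262 (-0.31) and changed sign with vehicle (0.03). On log2(TPM + 0.1) that vehicle value of Ifi27 was -0.17. On the CPM scale its ratio was -0.48, -0.61 and -0.55 in vehicle animals 1 to 3. Vehicle animal 4, whose IP library had the lowest depth, was at 0.25. The values that follow are on the CPM scale.

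Stat2 was the most even of the enriched genes. Its log2 ratio was 0.44, 0.59, 0.70 and 0.60 in wild-type animals, 0.42, 0.45, 0.29 and 0.43 with vehicle and 0.81, 0.70, 0.31 and 0.41 with MS1262. All 12 animals were above 0, and the fitted ratios were 0.58 (SE 0.12, adjusted p = 0.00129), 0.40 (SE 0.12, adjusted p = 0.0154) and 0.56 (SE 0.12, adjusted p = 0.00119). Slfn2, of the Schlafen family of growth regulators, had 0.83, 0.66, 2.54 and 3.03 in wild type, 1.59, 0.26, 1.62 and 1.19 with vehicle and 0.31, 2.55, 2.08 and 1.24 with MS1262. It was also above 0 in every animal but ran from 0.26 to 3.03, on 9 to 61 input counts. The vehicle call of Slfn2 (adjusted p = 0.0374) was lost without animal 1, 3 or 4 (0.0584 to 0.159), that of wild type (0.00556) without animal 4 (0.0533) and that of MS1262 (0.00980) without animal 2 or 3 (0.0662 and 0.0572). Over all alternatives these adjusted p ran from 7.51e-06 to 0.0533 in wild type, 0.00239 to 0.159 with vehicle and 6.21e-05 to 0.0662 with MS1262.

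Irf7 had the highest fitted ratio averaged over the groups, 1.78, but on the fewest reads. Its ratios were 0.30, 0.77, 1.89 and 1.85 in wild type, 2.87, 1.98, 0.70 and 2.74 with vehicle and 0.50, 3.46, 0.42 and 0.99 with MS1262. Every animal was above 0, while input counts ran from 0 to 20, so each ratio depends on the prior count of 2. It was called with vehicle (adjusted p = 0.0165, and 0.100 without animal 1 or 0.0573 without animal 4, in a range of 0.00376 to 0.100 over its alternatives) and in neither other group. Irgm2 had 1.38, 0.86, 2.26 and 2.77 in wild type, 0.55, 0.80, 1.4 and 0.44 with vehicle and -0.96, 1.43, 0.57 and 1.63 with MS1262. Only MS1262 animal 1 was below 0, and the call was made in wild type (1.83, SE 0.40, adjusted p = 0.00182). Bst2, next in this order, passed in no group.

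At the other end stood Ifitm2, Gbp7, Gbp3 and Ifi27l2a. Ifitm2 ratios were -0.74, -1.55, -1.42 and -1.49 in wild type, -1.79, -1.27, -1.71 and -0.11 with vehicle and -1.02, -1.52, -1.21 and -1.06 with MS1262. All 12 animals were below 0, with vehicle animal 4, the library of lowest depth, nearest to it. The fitted ratios were -1.30 (SE 0.22, adjusted p = 0.000206), -1.26 (SE 0.22, adjusted p = 0.000229) and -1.21 (SE 0.21, adjusted p = 0.000249). Gbp7 ratios were -0.63, -0.57, -0.74 and -0.70 in wild type, -0.61, -0.34, -0.74 and -1.13 with vehicle and -0.26, -0.85, -0.80 and -1.0 with MS1262. They too were below 0 in every animal, as were those of Ifit3 and Ifit1. Gbp3 had -1.11, -0.69, -0.76 and -1.17 in wild type, -0.65, -0.55, 0.10 and -1.11 with vehicle and -0.47, -0.46, -0.81 and -0.61 with MS1262, with vehicle animal 3 alone above 0. The vehicle call of Gbp3 (adjusted p = 0.0113) was lost without animal 1 (0.0685) and ran from 0.00106 to 0.310 over its alternatives. Ifi27l2a had the lowest mean ratio, -1.4, from ratios of -3.99, -0.92, -0.36 and -3.32 in wild type, -1.41, 0.45, -1.90 and -0.98 with vehicle and 0.75, -1.19, -1.06 and -1.34 with MS1262. Its IP libraries held 0 to 33 counts, and the wild-type call (adjusted p = 0.0421) was lost without animal 1 or 4 (0.168 and 0.155) and ran from 0.00560 to 0.168 over its alternatives.

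**Figure D5:**
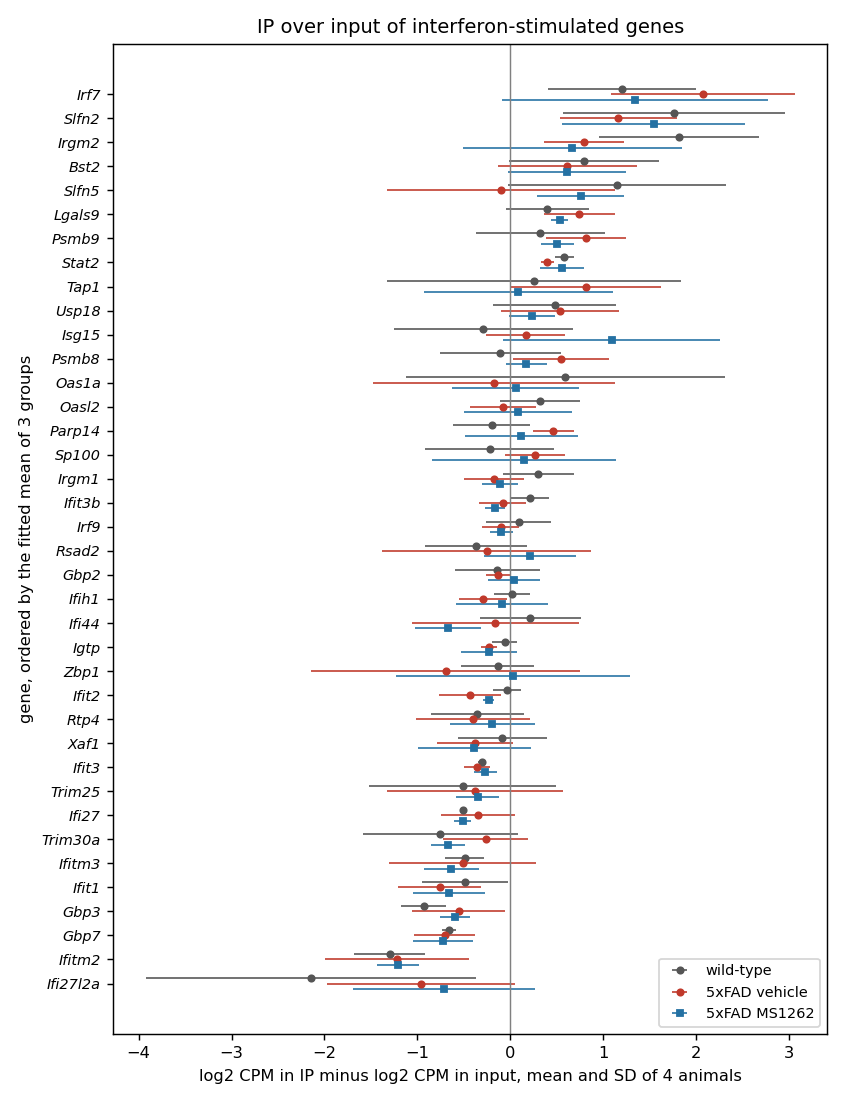
Mean and SD over 4 animals of log2 CPM in IP minus log2 CPM in input for each of the 38 genes in the 3 groups, ordered by the mean of the fitted group values; the line marks 0. Irf7 and Slfn2 lie to the right in all groups and Ifitm2 and Gbp7 to the left, and the groups overlap in most rows.

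No gene of the list passed the test for a difference between groups in its IP over input ratio. edgeR called 0 of 38 in each of the 3 comparisons, against 0.962% of all genes higher and 0.0273% lower for vehicle against wild type, 1.22% and 0.0219% for MS1262 against wild type, and 0% in both directions for MS1262 against vehicle. At an unadjusted p under 0.05 the list had 0 higher and 2 lower in each comparison with wild type, and 0 between the treatments. Over all 18300 genes 1265 were higher and 875 lower with vehicle and 1432 and 602 with MS1262, so that 2 lower genes of 38 is close to the share of all genes. DESeq2 called 0 of the list in all 3. The 2 genes were Irgm1 (-0.46, SE 0.20, adjusted p = 0.371) and Ifit2 (-0.36, SE 0.16, adjusted p = 0.371) with vehicle, and Ifit3b (-0.37, SE 0.16, adjusted p = 0.376) and Ifi44 (-0.88, SE 0.38, adjusted p = 0.395) with MS1262, and nothing is read from them. The standard errors show what could have been seen for a gene with many reads, since a difference of 0.46 for Irgm1 did not pass. Members with few reads varied more between animals, so larger differences could be missed there. In wild type the SD of the ratio was 1.72 for Oas1a and 1.77 for Ifi27l2a, against 0.39 for Irgm1.

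The authors' m6A peaks, called separately in each animal, touched 2 of the 38 genes, and by a single peak. It lies at chr12:103439885-103440158, where the spans of Ifi27 and Ifi27l2a overlap, and was called in vehicle animal 4 alone, with the authors' fold enrichment of 1.41 and a -log10 q of 1.01. Of 16843 other genes with a tested level, 34.8% had a peak in at least 1 animal, and 28.8% of the 14549 whose mean input count did not exceed that of the highest listed gene. That gene, Ifi27, lies far above most of the list, so these other genes were not matched to it on level, nor on length. Above a -log10 q of 1.3 no listed gene had a peak, against 33.2% of other genes. Neither Stat2 nor Slfn2, whose IP over input ratios were called above 0 in all 3 groups, had a peak in these lists.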

How the data were processed

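Hippocampal mRNA of 12 mice was profiled as 12 input and 12 m6A-IP libraries. Per the labels' protocols, polyA RNA was selected, 10% was kept as input and the rest was precipitated with a polyclonal anti-m6A antibody. Per the submitters' processing notes, the tools included Salmon 1.4.0, STAR 2.7.6a and MACS2 2.1.2, with the build GRCm38/mm10. The authors deposited estimated counts per gene, of which 22.11% of the values above 0 were not whole, and TPM values, which are scaled to transcript length. Their peak lists, per the file headers called per animal with a genome size of 1e+08, give a pileup signal, a fold enrichment ratio and -log10 q-values. That genome size is not the size of the mouse genome, and q-values and fold enrichments are given only as the authors' values.

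Counts were rounded and tested with edgeR 4.0.16 (R 4.3.3): quasi-likelihood F tests, trimmed-mean scaling, filterByExpr with a minimum count of 10, 2-sided, Benjamini-Hochberg over all genes at 0.05. Input and IP libraries were fitted separately by group, and IP over input with the animal as a block, since both portions come from 1 animal's RNA. Each fit left 9 residual degrees of freedom. Fits were tested on simulated data. Alternatives used DESeq2 1.42.0, limma 3.58.1 on log2(TPM + 1) and log2(TPM + 0.1), other scaling, no filter, replicate blocks and omitted animals. Genes given by animal were those called between groups, the 10 of smallest p across both 5xFAD groups and 6 fixed genes; for IP over input, the 4 highest and 4 lowest mean ratios. Members and lists were chosen with earlier results of these data known.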

Additional observations from a re-analysis of the deposited data

Results flagged for a closer look

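A single animal stood far from the other 3 of its group in 8 of 108 groups of 4 values checked, where chance flags about 1 in 20 groups. In input, these were Ifit3b in MS1262 animal 4 (33.7 CPM), Ifitm3 in vehicle animal 1 (18.6 CPM) and Ifitm2 in vehicle animal 2 (16.2 CPM, the low value of its group). In IP, vehicle animal 4, the library of lowest depth, was high for Ifitm2 (24.5 CPM) and Ifitm3 (22.6 CPM), and MS1262 animal 1 was low for Gbp2 (6.64 CPM). In the log2 ratio of IP to input, Ifi27l2a in MS1262 animal 1 (0.75) and Ifitm2 in wild-type animal 1 (-0.74) lay above the rest of their groups. The Ifitm3 call against wild type was lost without vehicle animal 1 (adjusted p = 0.115, edgeR's quasi-likelihood test, the highest over its alternatives, which ran from 0.00189).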

How the results depend on the processing

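Counts of listed genes called in input moved with the method. For vehicle against wild type (1) they were 6 by DESeq2, 0 by limma at both pseudocounts, 2 with no low-count filter, 2 without both animals of high Ttr (chosen after seeing the data) and 0 to 3 when an animal was left out. For MS1262 against wild type (1) they were 0 by limma, 2 with no filter and 0 to 2 on omission, and for both 5xFAD groups (2) 6 by DESeq2, 1 by limma, 5 with no filter and 0 to 4. With no filter 242 of all 29817 genes were called higher and 103 lower, 225 and 111, and 326 and 222, in the same order. On omission the calls over all genes, higher and lower together, were 108 to 297, 105 to 174 and 208 to 515. IP levels gave 2 (vehicle) and 1 (MS1262) by DESeq2 and 0 to 1 for vehicle on omission. Within groups, IP over input gave 16 (TPM + 1) or 17 (TPM + 0.1) in wild type and 23 or 22 with vehicle by limma, and on omission 7 to 12, 6 to 10 and 5 to 11 in wild type, vehicle and MS1262. On log2(TPM + 0.1), 7807 of all 18300 genes were called higher and 489 lower in wild type, and 9397 and 340 with vehicle. On omission the calls over all genes were 4492 to 5150, 5962 to 7371 and 5307 to 6184. At a -log10 q of 1.3 peaks touched 0 listed genes.

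With the replicate number as a block, 0 listed genes were called in all 3 input comparisons with wild type, and all-gene calls were 108 higher and 26 lower, 133 and 35, and 190 and 66, against 187 and 91, 161 and 69, and 269 and 157. Same-numbered animals of different groups did not deviate together (r from -0.0872 to 0.0426), and no label says that the numbers pair animals. Such correlations cannot exclude a pairing. Without the animal block, IP over input gave 5, 4 and 5 calls in wild type, vehicle and MS1262. Of all 18300 genes, 2229 were then called higher and 2050 lower, 2711 and 2548, and 2832 and 2232. Input and IP of an animal correlated best with each other in 12 of 12 animals. DESeq2 called 404 and 207, 386 and 247, and 528 and 349 of all genes, and limma on log2(TPM + 1) 60 and 195, 60 and 64, and 131 and 323. In log2(TPM + 0.1) the median of all genes in vehicle against wild type was -0.14.

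Fitted signs reversed for Irf7, Isg15 and Ifit3 in input, and by limma for Gbp7, Gbp3, Ifi27 and Ifit3 in IP over input. On omission of an animal, Irf7 against wild type ran from -0.87 to 0.24 with vehicle, from -0.37 to 0.96 with MS1262 and from -0.38 to 0.60 for both groups, and by limma it was -0.094 (TPM + 0.1) and -0.016 (TPM + 1) with MS1262. Isg15 ran from -0.022 to 0.50 with vehicle and from -0.23 to 0.15 for both groups, where it was 0.021 without the high-Ttr animals. Ifit3 ran from -0.014 to 0.26 with MS1262. On log2(TPM + 0.1) and log2(TPM + 1), Gbp7 IP over input was 0.074 and 0.063 in wild type, 0.38 and 0.33 with vehicle and 0.072 and 0.057 with MS1262, and Gbp3 0.28 and 0.25 with vehicle and 0.069 and 0.064 with MS1262. Ifi27 IP over input was 0.098 and 0.097 in wild type, 0.44 and 0.44 with vehicle and 0.055 and 0.055 with MS1262, and Ifit3 0.27 and 0.26, 0.36 and 0.36, and 0.34 and 0.33. On log2(TPM + 0.1) the median over all genes was itself 0.50, 0.60 and 0.55 in wild type, vehicle and MS1262. Relative to that median Gbp7 was at -0.42, -0.22 and -0.48 and Gbp3 at -0.84, -0.32 and -0.48. Ifi27 was then at -0.40, -0.17 and -0.50 and Ifit3 at -0.23, -0.24 and -0.22. Of the other values of single genes, 819 kept their direction and side of the threshold, 62 lost and 40 gained a call. The cause was not tested. Few reads limit Irf7, Isg15, Slfn2 and Ifi27l2a.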
